A study of Chlorocebus sabaeus with 3 samples.

Results

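The complement and coagulation genes are 34 genes that were chosen by name: 14 complement components, 12 complement regulators and receptors, and 8 genes of blood clotting and plasminogen activation. All 34 were found on the array, with 69 of its 54675 probe sets, and the probe set that was brightest on average over the tissues (log2) stood for each gene. They were set against all 19775 genes with a probe set of a single gene symbol, read in the same way.

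Total RNA of the conjunctiva, the limbus, and the cornea of the vervet monkey (Chlorocebus sabaeus) was hybridized to human U133 Plus expression arrays, 1 array for each of the 3 tissues. The animals carried no treatment or engineered allele according to the labels, and the methods of the study place them at about 3 years of age. By the account of the study, the tissues were taken out of a single eye. The dissected cornea and limbus held epithelium with the stroma directly under it, and the conjunctiva came with its Tenon layer. There was no replicate, so each value has no error and no p-value is given, and a difference could not be compared with any spread between samples. Values are RMA intensities on a linear scale, where RMA is a background correction and normalization that returns 1 positive number per probe set. Their median was 50.7 (conjunctiva), 49.0 (limbus), and 48.8 (cornea). For GAPDH, the 3′ control probe set exceeded the 5′ one by 3.83, 3.12, and 4.58 times in the same order, and for ACTB by 10.3, 11.8, and 11.2 times, so the limbus had the lowest ratio for GAPDH and the highest for ACTB. All 5 corneal epithelial and keratocyte markers were highest in the cornea and all 5 goblet cell markers were highest in the conjunctiva, matching the tissue labels.

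Complement is a cascade of plasma and tissue proteins that marks surfaces for removal. It starts from the C1 complex or from lectins that bind a target, or spontaneously through the alternative pathway, and all routes meet at the cleavage of C3. Downstream, C5 to C9 assemble into a pore in the target membrane, while soluble and membrane-bound regulators keep the cascade off host cells. Clotting starts when tissue factor meets plasma, and plasminogen activators dissolve the clot again. The liver makes most of the circulating proteins, but epithelia, fibroblasts, macrophages, and endothelium make many of them locally, and on the ocular surface they take part in defence and in wound repair.

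Complement components, and above all those of C3 and the alternative pathway, were higher in the conjunctiva than in the cornea. In 13 of the 34 genes the conjunctiva exceeded the cornea by at least 2-fold, compared with 5.68% of all genes, and for 0 genes was the cornea above the conjunctiva by that much, compared with 5.31% of all genes. The 13 comprised 9 of 14 components, 4 of 8 clotting and plasminogen genes, and 0 of 12 regulators and receptors. The median difference of conjunctiva minus cornea on the log2 scale was 1.42 for the components, 0.32 for the regulators and receptors, and 1.12 for the clotting and plasminogen genes, compared with -0.0072 for all genes. These are bulk tissues, in which fewer cells of a type and less RNA per cell cannot be told apart.

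The conjunctiva was the highest tissue for 27 of the 34 genes (79.4%), compared with 36.7% of all genes. In 16 (47.1%) the levels were ordered conjunctiva, limbus, cornea, compared with 20.5% of all genes. The exceptions were CFP, CD46, CR1, F3, PROS1, and PLAU, which were highest in the limbus, and C1QC, which was highest in the cornea. MASP1 and PLAUR, among the 27, were highest in the conjunctiva by such small differences that the cornea became the highest after each array was divided by its median. The number of genes that reached a value of 100, about 2 times the array median, was 23 (conjunctiva), 17 (limbus), and 14 (cornea). The other 11 stayed under 100 in every tissue, and 6 of them (C1QC, CFP, C5, C6, CR2, and TFPI2) stayed under the median of every array, where differences are uncertain.

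**Figure D1:**
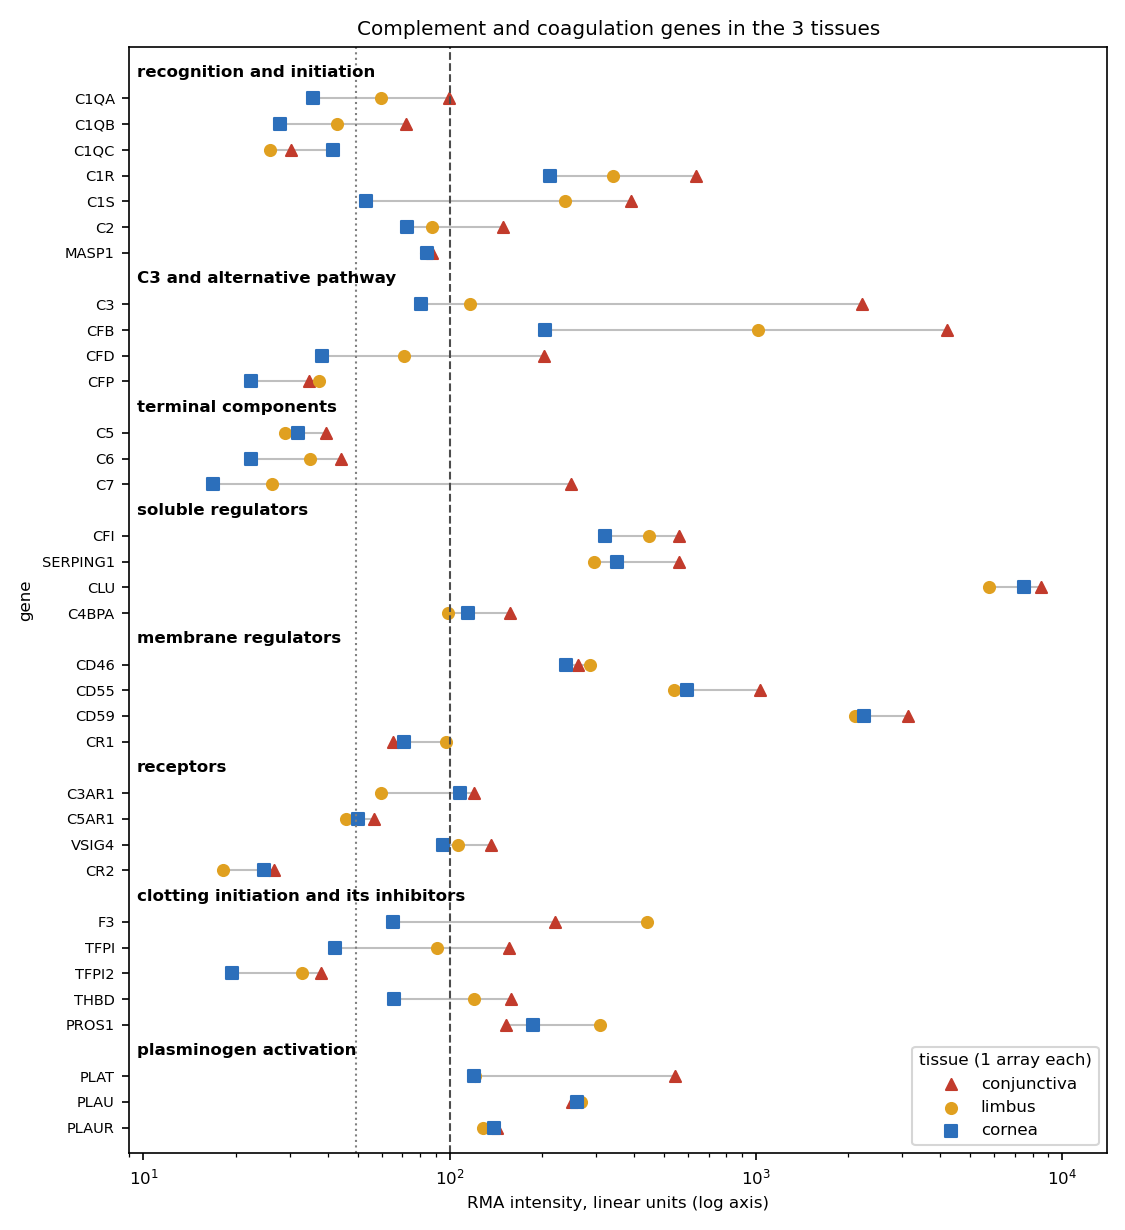
RMA intensity of each of the 34 genes (horizontal log axis, linear units) in the conjunctiva (triangles), the limbus (circles), and the cornea (squares), 1 array each, grouped by role; the grey bar spans the tissues, the dashed line marks a value of 100, and the dotted line the mean of the array medians. C3, CFB, and C7 have the widest spans, with the conjunctiva on the right, while the regulators and PLAU, PLAUR, and MASP1 have narrow ones.

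C3 is the central protein of the cascade, whose fragments coat the target. Its value was 2218 (conjunctiva), 116 (limbus), and 80.5 (cornea). The conjunctiva stood apart from both other tissues, by 19.1-fold against the limbus and by 27.5-fold against the cornea, while the limbus exceeded the cornea by 1.44-fold. CFB encodes factor B, the protease subunit of the alternative C3 convertase, and had a value of 4219 (conjunctiva), 1016 (limbus), and 205 (cornea). All neighbouring steps of CFB were thus past 2-fold, at 4.15-fold between the conjunctiva and the limbus and 4.95-fold between the limbus and the cornea. CFD encodes factor D (adipsin), which cleaves factor B, and had a value of 203 (conjunctiva), 70.9 (limbus), and 38.3 (cornea). It followed the same order with smaller steps, 2.86-fold and 1.85-fold.

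C3, CFB, and CFD, together with C7 and PLAT, were the 5 genes at least 2-fold higher in the conjunctiva than in both other tissues, compared with 1.68% of all genes. CFP encodes properdin, which stabilizes the alternative convertase and is known as a leukocyte product. Its value was 34.8 (conjunctiva), 37.4 (limbus), and 22.5 (cornea), all under the array medians. C3, CFD, and CFP have a single probe set each. CFB has another, and this did not show the difference: it stood at 96.0 (conjunctiva), 94.6 (limbus), and 86.1 (cornea). The CFB probe set that was used carries a suffix of the manufacturer (_s) for probes that match more than 1 transcript, and which of the CFB probe sets follows the vervet transcript was not tested.

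Secretory cell markers were highest in the conjunctiva too. The summed level of 5 of 5 goblet cell markers was 8311 (conjunctiva), 1193 (limbus), and 1659 (cornea), and that of 3 of 3 lacrimal and serous gland markers was 9333, 3269, and 3988, with no marker at 0. AGR2 and LYZ, which make up most of these sums, were lowest in the limbus, and so was TFF3 of the goblet cell list (131, 42.5, and 53.7). In contrast, MUC5AC, TFF1, and SPDEF of that list were higher in the limbus than the cornea, SPDEF by 1.04-fold alone. LTF and LCN1 of the gland list were also higher in the limbus than the cornea, as C3, CFB, and CFD were. The part of such cells in the levels of C3 and CFB was not tested. ALB, the defining liver transcript, stood at 16.5 (conjunctiva), 19.0 (limbus), and 18.7 (cornea), and the summed level of 5 of 5 hepatocyte markers was 262, 271, and 322. TTR, a plasma carrier protein known from other tissues too, was the 1 marker of that list that reached 100, at 128, 128, and 167.

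The classical pathway begins with C1, a complex of the recognition protein C1q and the proteases C1r and C1s, and C2 is cleaved next. C1S had a value of 392 (conjunctiva), 237 (limbus), and 53.5 (cornea). The cornea lay apart, as the conjunctiva was 7.33-fold and the limbus 4.44-fold above it. A weaker C1S probe set had the same order with smaller steps, at 42.0, 26.3, and 23.8. There the conjunctiva was 1.76-fold and the limbus 1.10-fold above the cornea. C1R had a value of 638 (conjunctiva), 341 (limbus), and 212 (cornea), so that the conjunctiva was 3.01-fold above the cornea. The step from the cornea to the limbus passed 2-fold on the brighter C1S probe set and not for C1R. C2 stood at 149, 87.4, and 72.6 in the same order, a difference of 2.05-fold that is just past the threshold and was lost when the arrays were divided by their medians. The weaker C2 probe set, at 19.6 in the conjunctiva and 20.8 in the cornea, had no such order.

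C1q is built from 3 chains, encoded by C1QA, C1QB, and C1QC, and tissue macrophages are its main source. C1QA had a value of 99.6 (conjunctiva), 59.5 (limbus), and 35.9 (cornea). C1QB had values of 72.1, 42.7, and 28.0. Both chains had the same order and nearly the same steps, 2.78-fold and 2.58-fold between the conjunctiva and the cornea. Neither reached 2-fold with 32 added to every value, and the limbal and corneal values of C1QB lay under the array medians. C1QC departed from them, with 30.3 (conjunctiva), 25.9 (limbus), and 41.6 (cornea), and lay under the median of every array. MASP1, a protease of the lectin pathway, was level at 87.7, 83.6, and 84.4, and its 4 other probe sets were all under 50.

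Macrophage markers, taken as a sum, had the order of C1QA and C1QB. Of 11 markers, 10 were measured, and their summed level was 1868 (conjunctiva), 1195 (limbus), and 752 (cornea). The median of conjunctiva minus cornea was 0.97 on the log2 scale, and MRC1, TYROBP, FCER1G, and LAPTM5 were lowest in the cornea by at least 2-fold. TYROBP, an adaptor of myeloid receptors, stood at 183, 121, and 32.8. For CD163, a scavenger receptor of macrophages, the values were 46.9, 44.2, and 40.3. Not every marker had the order of the sum. MSR1, under the array medians, was highest in the cornea (23.1, 23.3, and 33.6), and MARCO was lowest in the limbus (111, 81.0, and 90.7). AIF1 was highest in the conjunctiva but level between the limbus and the cornea. No marker was at 0, since RMA returns no 0. Their part in the C1q levels was not tested.

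The terminal components were represented by C5, C6, and C7. C7, which anchors the growing pore to the membrane, had a value of 250 (conjunctiva), 26.4 (limbus), and 16.9 (cornea). Only its conjunctival value lay above the array medians, so the 9.46-fold and 14.8-fold differences have low values as their base, and with 32 added to every value the difference of conjunctiva minus cornea was 2.53 on the log2 scale in place of 3.89. A weaker C7 probe set was level, between 15.8 and 18.6. C6 stood at 44.2, 34.9, and 22.4 in the conjunctiva, the limbus, and the cornea, and C5, whose cleavage starts pore formation, at 39.4, 29.0, and 31.9.

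C1R, C1S, and C7 are known to be made by fibroblasts among other cells. The 5 fibroblast markers measured summed to 21169 (conjunctiva), 11586 (limbus), and 13732 (cornea). COL1A1, COL1A2, and COL3A1 were at least 2-fold highest in the conjunctiva, whereas DCN was highest in the cornea. COL3A1, the collagen of loose connective tissue, had values of 2105, 519, and 46.3, in the order of C1S, CFB, and CFD. The part of fibroblasts in these levels was not tested.

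**Figure D2:**
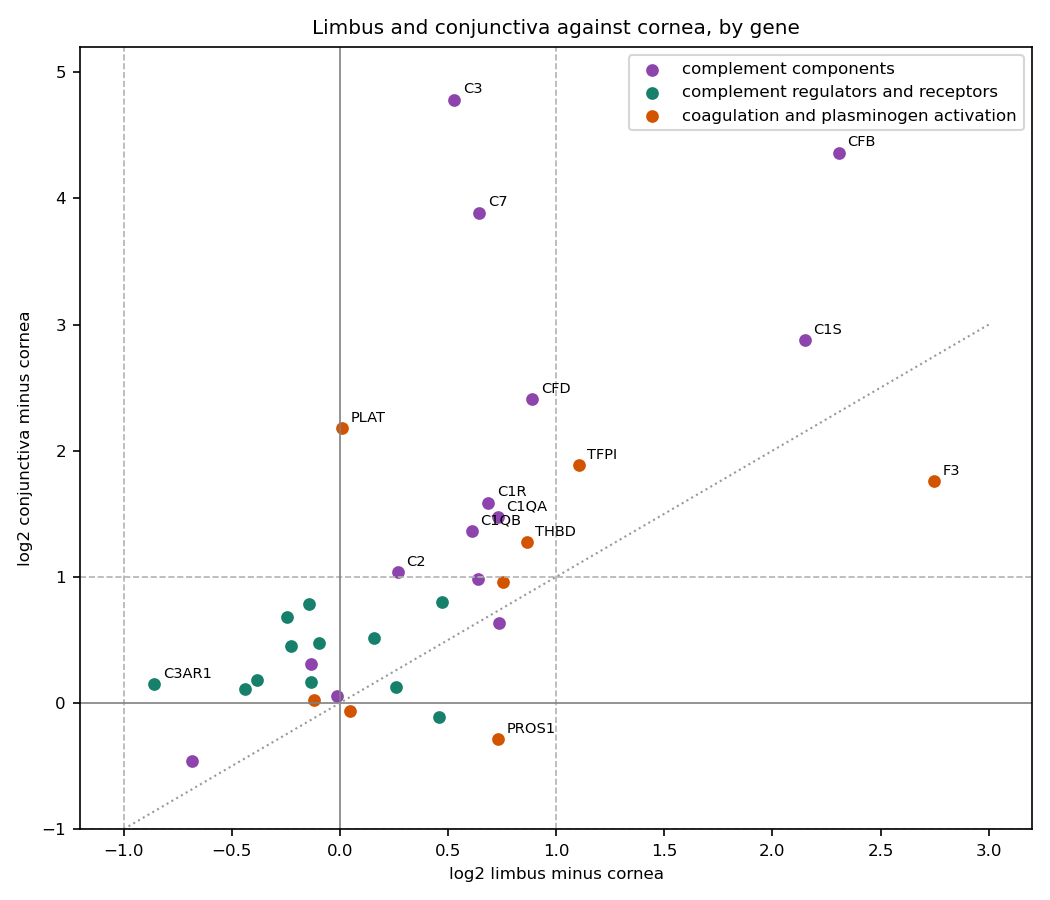
Log2 difference of limbus minus cornea (horizontal axis) and of conjunctiva minus cornea (vertical axis) for each of the 34 genes, from 1 array per tissue; dashed lines mark 2-fold, the dotted line equal levels in the limbus and the conjunctiva, and genes are named where any pair of tissues differed by at least 2-fold. C3, C7, and PLAT rise along the vertical axis with a limbus near the cornea, CFB and C1S are high on both axes, and F3 and PROS1 lie below the dotted line.

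The regulators, which restrain the cascade on host cells, differed less between the conjunctiva and the cornea than the components. None of the 12 regulators and receptors was 2-fold apart between these 2 tissues, and their differences ran from -0.11 to 0.80 on the log2 scale. Between the limbus and the conjunctiva the groups were closer. The median of limbus minus conjunctiva was -0.56 for regulators and receptors and -0.75 for components, compared with -0.035 for all genes. Among soluble regulators, SERPING1 (the C1 inhibitor, which removes C1r and C1s) had a value of 561 (conjunctiva), 295 (limbus), and 350 (cornea). CFI, the protease that inactivates C3b, had values of 561, 446, and 322. SERPING1 had its lowest value in the limbus and CFI in the cornea. A second CFI probe set, under 100, went the other way, at 22.4, 37.4, and 45.6, so the cornea was 2.04-fold above the conjunctiva there. C4BPA, a chain of the C4b-binding protein, stood at 157, 98.4, and 115.

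CLU encodes clusterin, a secreted chaperone that also blocks the terminal complex. Its value was 8540 (conjunctiva), 5765 (limbus), and 7513 (cornea), so the limbus was lowest. The pair of further CLU probe sets that reached 100 had the same order, with 3844, 1906, and 3226 on the first and 337, 184, and 311 on the second. The step between the conjunctiva and the limbus was 1.48-fold, 2.02-fold, and 1.83-fold on these 3 probe sets. A remaining CLU probe set, under 100, was highest in the cornea at 68.0 against 35.6 in the conjunctiva.

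CD55, CD46, and CD59 are surface proteins of nearly all cells that dismantle convertases (CD55), support their inactivation (CD46), or stop the pore (CD59). CD55 had a value of 1031 (conjunctiva), 540 (limbus), and 597 (cornea), and a second probe set had 717, 433, and 475. A further CD55 probe set went the other way, with 76.5, 96.8, and 165, so the cornea was 2.16-fold above the conjunctiva there. CD59 stood at 3142, 2108, and 2256, yet its second probe set was highest in the cornea (1267, 982, and 1463), and so was another (201, 322, and 342). CD46 was level at 262, 288, and 240, while another CD46 probe set had 162, 86.5, and 61.2 and was 2.65-fold higher in the conjunctiva than in the cornea. The order of the tissues for these membrane regulators therefore depended on the probe set.

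The receptors for complement fragments were at low values. C3AR1, the C3a receptor, was at 120 (conjunctiva), 59.6 (limbus), and 108 (cornea), which put the limbus 2.01-fold below the conjunctiva. This difference is at the threshold, and it fell under 2-fold with each other scaling of the arrays. C5AR1, the C5a receptor of myeloid cells, stood at 56.6, 45.9, and 50.3, close to the array medians. VSIG4, a receptor of resident macrophages that takes up C3b-coated particles, had values of 137, 107, and 95.4. CR2, the B cell receptor for C3d, was under 30 in every tissue, and CR1, which binds C3b and C4b, was at 65.4 (conjunctiva), 97.3 (limbus), and 70.8 (cornea). The macrophage marker sum had the order of C1QA, C1QB, and VSIG4, and not that of C1QC, C3AR1, or C5AR1.

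Of the role groups, the 5 clotting genes had the highest median of limbus minus cornea, 0.86 on the log2 scale. The C3 and alternative pathway group was close to it at 0.81. F3, which encodes tissue factor, the cell-surface protein that starts clotting, had a value of 221 (conjunctiva), 439 (limbus), and 65.5 (cornea). The limbal value was 6.71 times the corneal and 1.98 times the conjunctival one, just short of 2-fold, and after division of each array by its median or by its hybridization controls F3 was at least 2-fold highest in the limbus. TFPI, the inhibitor that shuts tissue factor down, had a value of 157 (conjunctiva), 91.2 (limbus), and 42.4 (cornea). The cornea was lowest for both, but their highest tissues differed. A second TFPI probe set had the same order, with 75.0, 53.2, and 36.4, and the other 3 were under 40. On the brightest of these 3, the cornea (34.6) lay above the limbus. With the median of its 5 probe sets in place of the brightest, TFPI had a difference of limbus minus cornea of -0.59 on the log2 scale and not 1.11.

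F3, TFPI, C1S, and CFB were the 4 genes in which the limbus exceeded the cornea by at least 2-fold, compared with 4.06% of all genes. TFPI was lost from the 4 with 32 added to every value and by the median over probe sets. The same 4 were lowest in the cornea by at least 2-fold, compared with 2.93% of all genes. In both cases the 4 genes make up 11.8% of the 34. In the other direction, for 0 genes did the cornea exceed the limbus by 2-fold, compared with 2.51% of all genes.

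THBD encodes thrombomodulin, the endothelial receptor that turns thrombin into an anticoagulant, and PROS1 encodes protein S, a cofactor of the same anticoagulant route. THBD had a value of 159 (conjunctiva), 120 (limbus), and 65.8 (cornea). On its second probe set the limbus was highest, at 148 against 71.9 in the conjunctiva and 61.0 in the cornea, and on both the cornea was lowest. PROS1 had a value of 153 (conjunctiva), 310 (limbus), and 187 (cornea). It was the 1 gene in which the limbus exceeded the conjunctiva by 2-fold, compared with 2.62% of all genes, and the ratio was 2.02. TFPI2, a matrix-associated relative of TFPI, was at 37.9, 32.9, and 19.5.

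Between the conjunctiva and the limbus, 6 genes (C3, CFB, CFD, C7, C3AR1, and PLAT) were at least 2-fold higher in the conjunctiva, compared with 2.31% of all genes. The split of 6 against 1 became 5 against 2 when the arrays were divided by their medians or by their hybridization controls, and 5 against 0 when they were quantile normalized together. No gene was at least 2-fold highest in the limbus (0.475% of all genes), highest in the cornea (1.89%), lowest in the conjunctiva (1.55%), or lowest in the limbus (0.0708%).

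Vessel markers were lowest in the cornea, which has no vessels of its own. The 9 blood vessel markers summed to 2727 (conjunctiva), 1875 (limbus), and 759 (cornea), and PECAM1, CDH5, VWF, and EMCN were lowest in the cornea by at least 2-fold. PECAM1, an endothelial adhesion molecule, stood at 675, 462, and 45.9. TFPI and THBD, both known in endothelium, had the order of this sum, and F3 did not. The second THBD probe set was highest in the limbus, as F3 was. So were 3 of the 9 vessel markers: EMCN (162, 223, and 41.6), TEK (87.7, 104, and 63.7), and KDR (98.8, 126, and 88.7). Platelet markers, 4 of 4 measured, summed to 356, 295, and 310. The part of vessels in the clotting genes was not tested.

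Of the plasminogen genes, PLAT, which encodes tissue plasminogen activator, had a value of 545 (conjunctiva), 121 (limbus), and 120 (cornea). The limbus and the cornea were alike to within 1.01-fold, and the conjunctiva was 4.49-fold and 4.52-fold above them. PLAU, the urokinase activator of migrating epithelium, was level at 250, 269, and 261. Its receptor PLAUR was level as well, at 142, 129, and 140. A further PLAUR probe set, under 100, was 1.89-fold higher in the conjunctiva than in the cornea. The difference in this group was thus in PLAT, which has a single probe set.

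**Figure D3:**
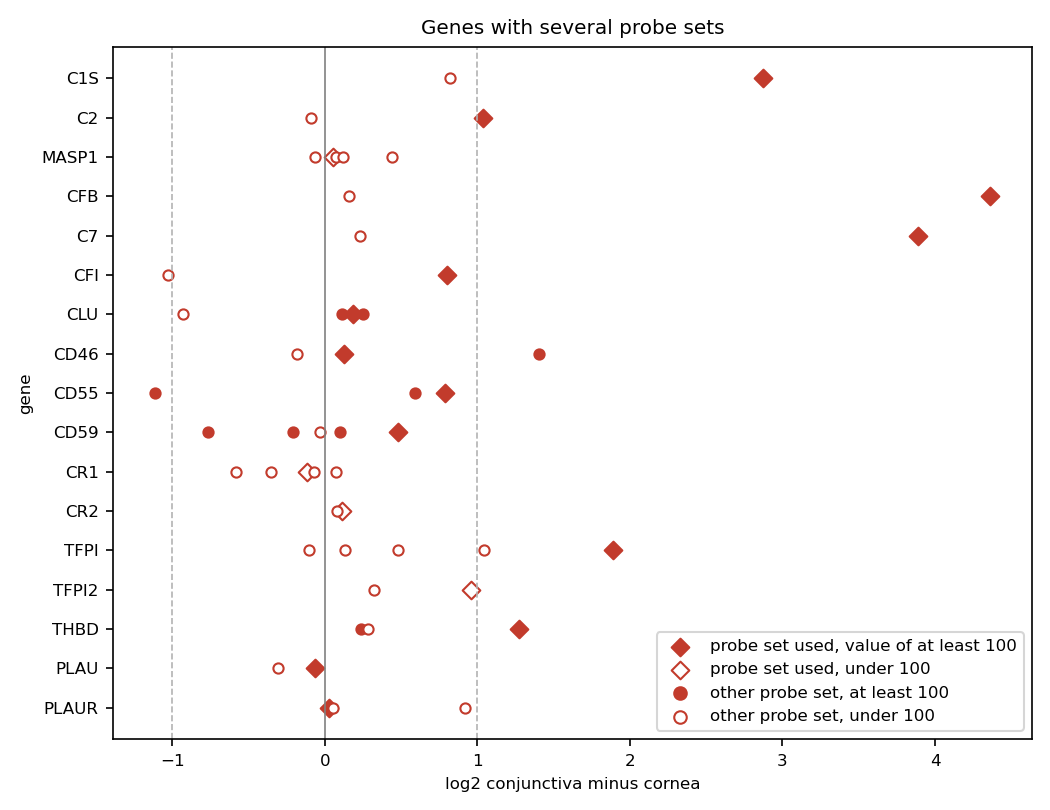
Log2 difference of conjunctiva minus cornea (horizontal axis) for every probe set of the 17 genes with more than 1, from 1 array per tissue; diamonds are the probe sets used, circles the others, filled symbols reached 100 in some tissue, and dashed lines mark 2-fold. The wide differences of CFB, C7, and C1S are those of a single probe set, and the filled circles of CD55 and CD59 lie on either side of 0.

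With 1 array per tissue, further probe sets of a gene were what its values could be checked against. Of the 34 genes, 17 have 1 probe set and 17 have several, with 35 probe sets beside those used. Only 9 of the 35 reached 100, all of them of CLU, CD46, CD55, CD59, and THBD, that is, mostly of membrane regulators. Of these 9, 6 had the same sign of conjunctiva minus cornea as the probe set used, and 3 had the same highest tissue. For C1R, C3, CFD, SERPING1, F3, PROS1, and PLAT no second probe set was at hand, and for C1S, CFB, and C7 the second stayed under 100.

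Genes that lie side by side did not share a pattern in every case. In the vervet assembly mChlSab1.0.hap1, C2 and CFB are adjacent, and their differences of conjunctiva minus cornea were 1.04 and 4.36 on the log2 scale. C6 and C7, with 1 protein-coding gene between them, differed by 0.98 and 3.89. C1QB, C1QC, and C1QA are in a row, with 1.37, -0.46, and 1.47. CD46, CR1, CR2, and CD55 are also in a row, followed after 1 gene by C4BPA, and this cluster of regulators stayed between -0.11 and 0.79. The annotation held 32 of the 34 genes by symbol.

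Further genes of both systems had smaller medians than the components and the clotting genes above. Of 28 further complement genes measured of 35 listed, 5 were at least 2-fold higher in the conjunctiva than in the cornea (CFHR2, MASP2, COLEC11, ITGAM, and CSMD1), a share of 17.9%, compared with 5.68% of all genes. The median of the 28 was 0.22 on the log2 scale, compared with 1.42 for the 14 components above. COLEC11, a collectin of the lectin pathway, had values of 130, 90.8, and 61.3 in the conjunctiva, the limbus, and the cornea, and its protease partner MASP2 had 128, 87.8, and 57.3. ITGAM, the alpha chain of complement receptor 3 on myeloid cells, stood at 150, 86.9, and 65.0. CSMD1, a membrane inhibitor of complement, passed at values of 50.9, 24.6, and 14.9, and CFHR2 belongs to a family of near-identical genes whose probes may not separate its members. SUSD4, another membrane inhibitor, stood at 257, 292, and 134 in the same order. Its limbal value was 2.18 times the corneal one but 1.14 times the conjunctival one. The study lists SUSD4 among its limbal transcripts, which it selected at 2-fold above both other tissues. Further SUSD4 probe sets are not given here. These genes, other than VWF below, are named because their counts are small and were chosen after their values were seen.

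Of 38 further clotting and fibrinolysis genes measured of 41 listed, only VWF was at least 2-fold higher in the conjunctiva than in the cornea, a share of 2.63%, compared with 5.68% of all genes. VWF encodes von Willebrand factor, an endothelial adhesion protein for platelets, and had a value of 940 (conjunctiva), 407 (limbus), and 106 (cornea). It was past 2-fold at each step. The median of the 38 genes was -0.0034 on the log2 scale. F10, a liver clotting factor, had a conjunctival value 2.53 times the limbal one, at 113 against 44.7, and S100A10, a cell-surface partner of annexin A2 in plasminogen activation, had a limbal value 2.27 times the conjunctival one, at 2530 against 1115.

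**Figure D4:**
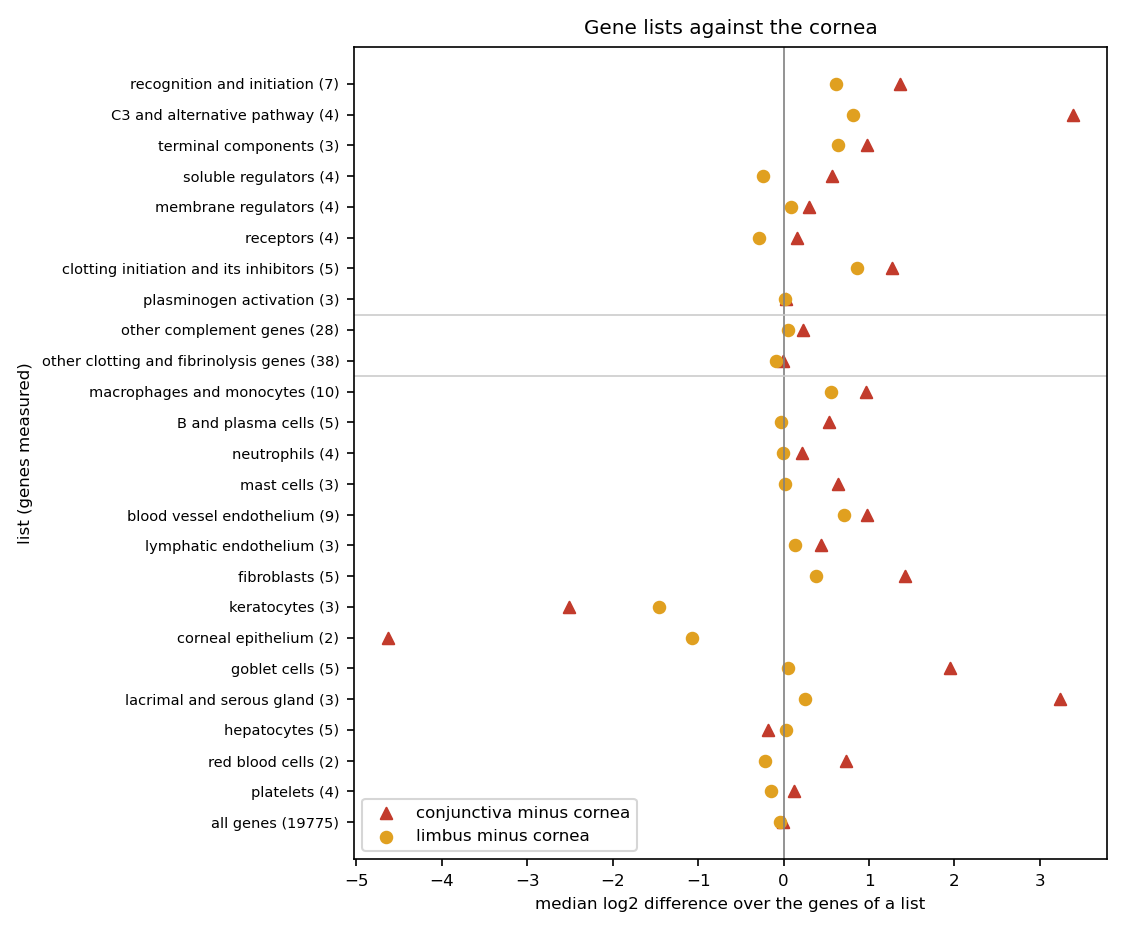
Median over the genes of a list of the log2 difference from the cornea, for the conjunctiva (triangles) and the limbus (circles), from 1 array per tissue; role groups of the 34 genes are at the top, further pathway genes next, then cell type markers and all genes, with the number measured in parentheses. The C3 and alternative pathway group has the highest conjunctival median of the role groups (3.38), and the further clotting genes lie with all genes near 0.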

How the data were processed

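Total RNA of the conjunctiva, the limbus, and the cornea was amplified in 2 rounds, labelled with biotin, and hybridized to Affymetrix human U133 Plus arrays (1 array per tissue, no replicate). The deposited values are intensities, which the authors made with justRMA, taking every array separately against a constant set of reference arrays, and which stand on a linear scale. No version of RMA is given in the submitters' notes on processing. The table has 54675 probe sets, 0 missing values, and 0 columns of other samples.

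Probe sets were named from an older platform annotation. Of these, 41097 had 1 symbol and were used, 1801 had several, and 11777 are not named here. Each gene took the probe set that was brightest on average over the tissues (log2). Ratios were taken on the linear scale, and a gene was counted at 2-fold. The study applied 2-fold to a tissue above both others, and the counts for pairs of tissues and for a lowest tissue were added here. No p-value can be had without replicates, and precision is limited by the number of arrays. The counting was tested on simulated data. The 34 genes, the other gene lists, and all settings were chosen with earlier results of these data known. All 34 genes are named, and of the other pathway genes those at least 2-fold highest or lowest in a tissue with a value of at least 100, which holds for VWF. The other pathway genes named were picked after their values were seen. Python 3.11.15, numpy 2.4.6, pandas 2.3.3, and matplotlib 3.10.9 were used. Alternatives varied the threshold, a minimum level, a pseudocount, the scaling, and the choice of probe set.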

Additional observations from a re-analysis of the deposited data

How the results depend on the processing

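With 1 array per tissue no value has a replicate error, and a move by more than 1.5-fold was taken as a change. Most probe sets lie under 100, where ratios are uncertain, and the human probes may bind vervet transcripts unequally. Of the counts and list medians under the alternatives, 159 stayed in direction and within a limit, 28 moved further, and 5 changed sign. The limit was 1.5 times for a count and a shift of 0.585 on the log2 scale for a median. Counts of 0 that stayed at 0 are among the 159. With a pseudocount of 32, the conjunctiva minus cornea medians fell within this limit. They were 0.88 for components (from 1.42), 0.27 for regulators and receptors (from 0.32), and 0.70 for clotting and plasminogen genes (from 1.12). The count of 13 genes higher in the conjunctiva than in the cornea was 7 of 24 genes with probe sets of the plain _at suffix (5.18% of all genes), 9 with a pseudocount of 32 (3.84%, without C1QA, C1QB, C2, and THBD), and 18 with arrays divided by their hybridization controls (10.4%), and 0 genes were higher in the cornea than in the conjunctiva in all of these.

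At a 1.5-fold threshold, 13 genes were highest in the conjunctiva (5.31% of all genes), 2 in the limbus (2.19%), 13 lowest in the cornea (6.07%), and 1 lowest in the limbus (1.48%), while 14 were higher in the limbus than the cornea (9.82%), 2 the other way (10.4%), 15 higher in the conjunctiva than in the limbus (9.11%), and 2 the other way (8.38%). The 1 gene higher in the limbus than in the conjunctiva, PROS1, was lost (0 genes) at 3-fold, with the pseudocount, and with quantile normalization. Division by the array medians gave 1 gene highest in the limbus (0.501% of all genes) and 2 higher there than in the conjunctiva (2.96%). Division by the hybridization controls moved the median of all genes from -0.045 to 0.57 for limbus minus cornea, and counts against the cornea follow from that shift: 14 genes were lowest in the cornea (7.09% of all genes), 17 higher in the limbus than the cornea (16.7%), 2 highest in the limbus (2.23%), and 2 higher there than in the conjunctiva (5.87%). The medians of limbus minus cornea were then 1.26 for components, 0.48 for regulators and receptors (from -0.14), and 1.36 for clotting and plasminogen genes, and that of limbus minus conjunctiva for the last was 0.12 (from -0.17). Against the median of all genes they stayed in place, since the scaling adds a constant. Quantile normalization gave 0.013 for limbus minus cornea of the regulators and receptors. With plain _at probe sets, of the 24 genes that have one, 2 were highest in the conjunctiva (1.41% of all genes), 1, THBD, in the limbus (0.506%), 2 lowest in the cornea (2.58%), and 3 higher in the conjunctiva than in the limbus (1.97%), and CFB was among those lost. The clotting and plasminogen medians were then 0.32 for conjunctiva minus cornea and 0.20 for limbus minus conjunctiva. By the median over all its probe sets for each gene they were 0.18 and 0.055, and TFPI changed from 1.11 to -0.59 for limbus minus cornea. Over the 7 components that reached 100, the median was 2.87 for conjunctiva minus cornea and -1.52 for limbus minus conjunctiva.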

Other observations

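Some values stand outside the comparisons above. HBB, the beta chain of haemoglobin and a marker of blood left in a tissue, had a value of 414 (conjunctiva), 132 (limbus), and 150 (cornea), while ALAS2, the other red blood cell marker read, stood at 60.9, 51.4, and 61.4. POU2AF1, a coactivator of B and plasma cells, had values of 189, 44.3, and 22.6 in the same order. It had the widest difference of the 5 B and plasma cell markers measured, which summed to 477, 257, and 239. CD79A, CD79B, and TNFRSF17 of that list were lowest in the limbus and not in the cornea. The mast cell protease CPA3 was at 148, 111, and 37.9. KIT, listed as a mast cell marker, was highest in the cornea at 6078 against 1607 in the conjunctiva and 1791 in the limbus, opposite to CPA3. Neutrophil markers, 4 of 4 measured, summed to 328 (conjunctiva), 299 (limbus), and 286 (cornea).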
